A study of Mus musculus with 4 samples.

Results

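The 43 genes described here belong to the interferon response and to antigen presentation: receptors and kinases, transcription factors, RNA sensors and antiviral effectors, enzymes of ISG15 and ADP-ribose conjugation, the machinery that supplies peptides, major histocompatibility complex (MHC) class I chains, and the checkpoint ligand Cd274. They were listed by symbol from what these genes are known to do, but with earlier results of these data already known. Each was matched through its RefSeq accession to probes among the 20828 genes named on the arrays. All 43 had a probe. Of these, 31 were well above the local background on both arrays of at least 1 cell population and were tested, and the remaining 12 were not detected.

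B16-F10 is a pigmented mouse melanoma cell line, here grown in RPMI medium with 10% fetal bovine serum. Its cells were separated on a flow cytometer into a Met-low and a Met-high population by how strongly an antibody stained the Met receptor on their surface. Each sorted population was cultured for 3 days, and RNA of 2 independently prepared samples of each was hybridised to 1-colour Agilent arrays. The labels name no interferon, drug or genetic change in either population, so the levels below are those of cells in plain culture. They are levels in bulk RNA, in which fewer cells expressing a gene and less RNA per cell cannot be told apart.

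Interferons bind receptors whose associated Janus kinases phosphorylate STAT proteins, and these, together with interferon regulatory factors, switch on a large set of antiviral genes. Type I interferons act mainly through a complex that binds the interferon-stimulated response element (ISRE), while interferon gamma acts mainly through the gamma-activated sequence (GAS). Among the genes they induce are those that cut proteins into peptides, carry the peptides into the endoplasmic reticulum and present them on MHC class I molecules to cytotoxic T cells, a route by which melanoma cells can be recognised.

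Across the 31 members tested, 6 were higher in Met-low cells (Gbp3, Gbp2, Tap1, Ifih1, Tap2 and Eif2ak2) and 3 were higher in Met-high cells (Bst2, Isg20 and Dtx3l). Levels are log2 signals relative to the 75th percentile of the array, and a log2 ratio is the mean of the 2 Met-high arrays minus the mean of the 2 Met-low arrays. A gene was called at an adjusted p under 0.05 from limma with Benjamini-Hochberg adjustment over all 11954 genes tested, of which 5.73% were called in either direction, 1.93% as higher in Met-high and 3.80% as higher in Met-low. Scaled instead to the percentile of probes above background on all arrays, 2 members were called as higher in Met-high and 7 as higher in Met-low cells, and over all genes the split went from 231 against 454 to 146 against 613. The same 9 members were those that differed by more than 2-fold, a difference seen in 7.72% of all genes tested. The direction of Isg20 held for 1 of its 2 probes only. Gbp3, Tap1 and Ifih1 were tested only because their Met-low arrays were above background. Among the 28 members above background on all 4 arrays, fitted with genes meeting the same condition, 7 were called against 5.53% of all genes, namely Gbp2, Tap2, Eif2ak2, Bst2, Isg20, Dtx3l and Cd274. When all 20828 genes were tested without a filter on dim probes, limma called 0 members and 7 genes in all, with 19 members at an unadjusted p under 0.05.

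**Figure D1:**
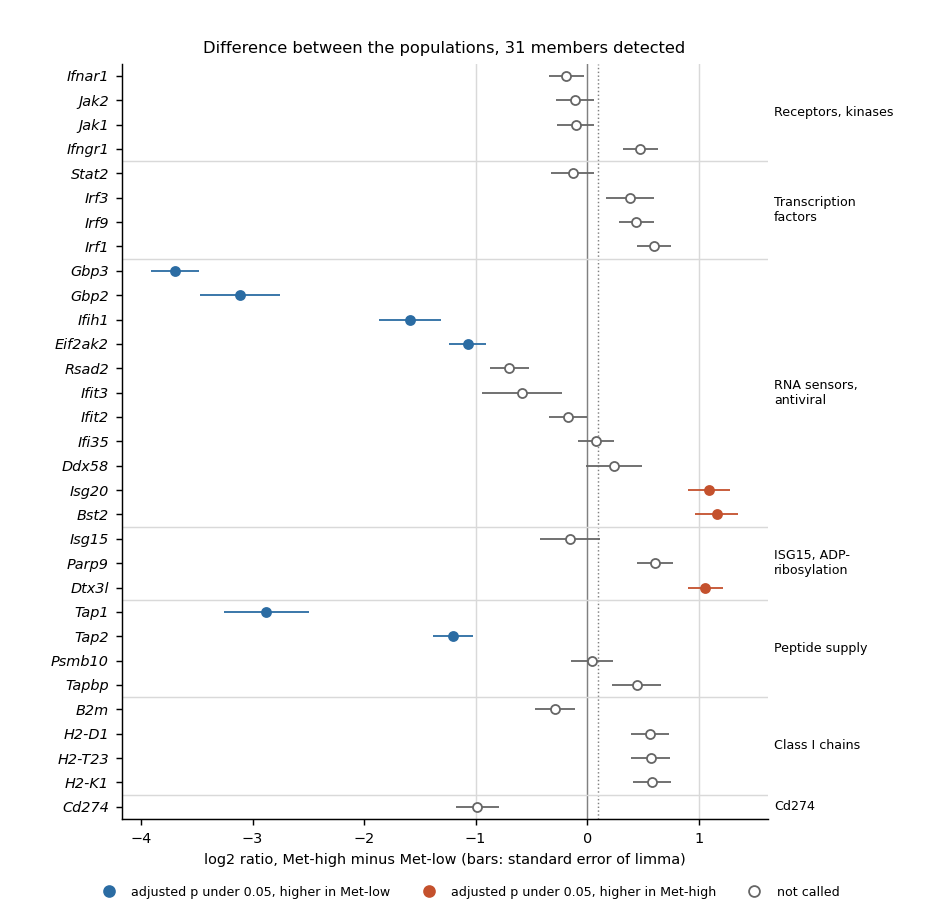
Log2 ratio of each of the 31 members tested, Met-high minus Met-low (horizontal axis), with the standard error from limma (bars), grouped by role, and with a dotted line at the median of all genes tested, 0.10. Filled points are the 9 called members, 6 to the left of -1 (blue) and 3 to the right of 1 (red), and open points are the 22 members not called.

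The plot of the log2 ratios shows that the calls were spread over 3 of the 7 role groups. RNA sensors and antiviral effectors held 6 of them, peptide supply and loading held 2, and ISG15 and ADP-ribosylation enzymes held 1. Receptors and kinases, transcription factors, class I chains and Cd274 held 0 called genes. At an unadjusted p under 0.05 there were 18 members, among them Cd274, Irf1, Irf9, Ifngr1 and the heavy chains H2-K1, H2-D1 and H2-T23, against 26.2% of all genes tested.

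Promoter windows were available for 37 of the 43 members in RefSeq (assembly GRCm38.p6), each with 300 bases around the annotated start of the gene. They were searched on both strands for 3 strings of letters: the ISRE-like string (GAAA, any 2 bases, GAAA), the GAS-like TTCNNNGAA, and the E-box-like CACGTG, an unrelated motif. Windows of 6 members are shown because they belong to called members that hold the ISRE-like string and, for contrast, to Ifit3, which held it at 2 places and was not called. They lie at chr3:142620413-142620712 on the + strand (Gbp2), chr3:142559794-142560093 on the + strand (Gbp3), chr2:62646206-62646505 on the - strand (Ifih1), chr17:78882523-78882822 on the - strand (Eif2ak2), chr8:71537423-71537722 on the - strand (Bst2) and chr19:34583279-34583578 on the + strand (Ifit3). Each is written 5′ to 3′ along the gene, and capitals mark the ISRE-like string on either strand, which reads TTTC, any 2 bases, TTTC when it lies on the opposite strand.
Gbp2: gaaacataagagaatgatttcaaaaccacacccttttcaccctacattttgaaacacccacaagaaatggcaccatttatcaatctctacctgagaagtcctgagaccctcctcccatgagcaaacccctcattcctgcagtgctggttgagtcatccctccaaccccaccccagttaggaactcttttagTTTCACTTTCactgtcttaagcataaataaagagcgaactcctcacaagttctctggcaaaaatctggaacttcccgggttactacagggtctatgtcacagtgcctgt
Gbp3: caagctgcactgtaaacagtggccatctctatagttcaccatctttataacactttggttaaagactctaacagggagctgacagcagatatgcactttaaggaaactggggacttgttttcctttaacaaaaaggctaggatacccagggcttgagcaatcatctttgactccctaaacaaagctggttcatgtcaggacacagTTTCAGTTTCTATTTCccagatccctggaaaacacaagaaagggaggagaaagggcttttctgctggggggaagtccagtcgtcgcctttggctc
Ifih1: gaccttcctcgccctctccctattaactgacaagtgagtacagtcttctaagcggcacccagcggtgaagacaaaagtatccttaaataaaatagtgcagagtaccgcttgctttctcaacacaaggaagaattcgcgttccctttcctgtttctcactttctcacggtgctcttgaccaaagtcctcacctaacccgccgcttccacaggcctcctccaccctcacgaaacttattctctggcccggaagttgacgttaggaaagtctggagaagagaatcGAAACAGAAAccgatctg
Eif2ak2: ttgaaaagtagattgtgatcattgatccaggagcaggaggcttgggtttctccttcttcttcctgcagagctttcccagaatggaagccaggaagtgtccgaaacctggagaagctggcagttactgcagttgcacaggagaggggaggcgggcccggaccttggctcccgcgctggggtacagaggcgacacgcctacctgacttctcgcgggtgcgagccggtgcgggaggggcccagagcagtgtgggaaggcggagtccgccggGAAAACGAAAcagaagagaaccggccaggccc
Bst2: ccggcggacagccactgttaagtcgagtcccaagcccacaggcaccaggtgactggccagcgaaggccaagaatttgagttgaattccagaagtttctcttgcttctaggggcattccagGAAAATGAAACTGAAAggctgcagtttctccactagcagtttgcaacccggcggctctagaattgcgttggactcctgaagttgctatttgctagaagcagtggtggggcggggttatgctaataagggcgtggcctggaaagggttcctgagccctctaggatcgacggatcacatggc
Ifit3: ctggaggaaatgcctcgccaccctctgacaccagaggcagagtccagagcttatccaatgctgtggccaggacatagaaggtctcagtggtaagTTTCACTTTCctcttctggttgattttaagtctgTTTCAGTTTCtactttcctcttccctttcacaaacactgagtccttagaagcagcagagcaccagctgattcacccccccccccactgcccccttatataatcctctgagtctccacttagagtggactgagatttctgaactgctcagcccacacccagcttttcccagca

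With the annotated start counted as base 0, the capitals ran from -59 to -50 in Gbp2, from 32 to 41 in Ifih1 and from 18 to 27 in Eif2ak2. In Gbp3 they marked 2 overlapping matches, from -45 to -36 and from -39 to -30. In Bst2 they marked another overlapping pair, from -130 to -121 and from -124 to -115, which a GAS-like match from -136 to -128 also overlapped. The string was present in 14 of the 37 members with a window. Counted by window, it was in 14 of the 44 windows of members and in 3.44% of all 32851 windows of the table. By call, it was found in 4 of 5 members higher in Met-low cells that had a window, 1 of 3 higher in Met-high cells, 7 of 21 tested but not called, and 2 of 8 not detected. The GAS-like string was present in 9 members (9 of 44 member windows, against 8.30% of all windows). The E-box-like string was present in 1 member, Psmb10 (1 of 44 member windows, against 7.15% of all windows). These are matches of letters, and binding of any factor was not measured.

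**Figure D2:**
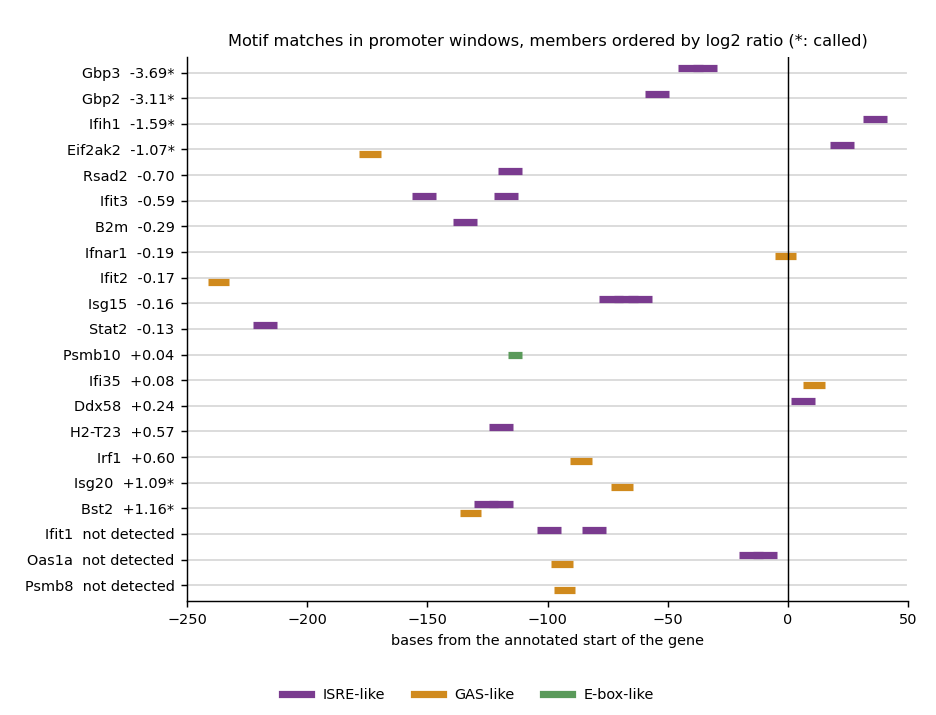
Positions of the 3 strings in the promoter windows of the 21 members that held at least 1, in bases from the annotated start (vertical line), with members ordered by log2 ratio and called members starred. The ISRE-like string (purple) appears in Gbp3 (-3.69), Gbp2, Ifih1 and Eif2ak2 among members called higher in Met-low cells. Among those called higher in Met-high cells it appears in Bst2 (1.16) alone. It also appears in members not detected, such as Ifit1.

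The map of the matches shows the ISRE-like string in 4 called members at the Met-low end and in 1, Bst2, at the Met-high end. The members without a window were Usp18, Parp9, Parp14, Tap2, Nlrc5 and Ciita.

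Among the upstream members, both receptors and both kinases were detected on all 4 arrays and none was called. Ifnar1, a chain of the type I interferon receptor, gave 0.79 and 0.66 in Met-low and 0.51 and 0.55 in Met-high cells, and its ratio was -0.19 (standard error 0.16, adjusted p = 0.481). The Met-low arrays lay just above the Met-high arrays, and 3 separate probes of the gene gave ratios of -0.17 to -0.20. Ifngr1, the ligand-binding chain of the interferon gamma receptor, gave 0.14 and 0.01 in Met-low and 0.60 and 0.51 in Met-high cells, a ratio of 0.48 (standard error 0.16, adjusted p = 0.145). Here the Met-high arrays were the higher ones, without overlap. The kinase Jak1 gave 1.89 and 1.80 against 1.65 and 1.84, a ratio of -0.10 (standard error 0.17, adjusted p = 0.725). Jak2 gave 0.29 and 0.34 against 0.09 and 0.33, a ratio of -0.11 (standard error 0.17, adjusted p = 0.713). For both kinases the populations overlapped.

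Of the 7 transcription factors and coactivators, 4 were detected and 0 were called. Stat2, the STAT protein particular to type I signalling, gave -2.06 and -2.04 in Met-low and -2.37 and -1.98 in Met-high cells, a ratio of -0.13 (standard error 0.19, adjusted p = 0.705), with overlap. Irf9, its DNA-binding partner, gave -2.49 and -2.35 against -2.01 and -1.95, a ratio of 0.44 (standard error 0.16, adjusted p = 0.163). Irf1, a factor induced by interferon gamma, gave -0.27 and -0.23 against 0.30 and 0.40, a ratio of 0.60 (standard error 0.16, adjusted p = 0.0925). For Irf9 and Irf1 the Met-high arrays were thus the higher ones without overlap, by less than 2-fold. Irf3, a factor activated by phosphorylation downstream of RNA sensors, gave 3.07 and 3.27 against 3.32 and 3.79, a ratio of 0.38 (standard error 0.22, adjusted p = 0.322), and its arrays did not overlap. Irf7 and Ciita, the latter the class II transactivator, were above background on no array, and Nlrc5, the class I transactivator, on 1 Met-low array.

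**Figure D3:**
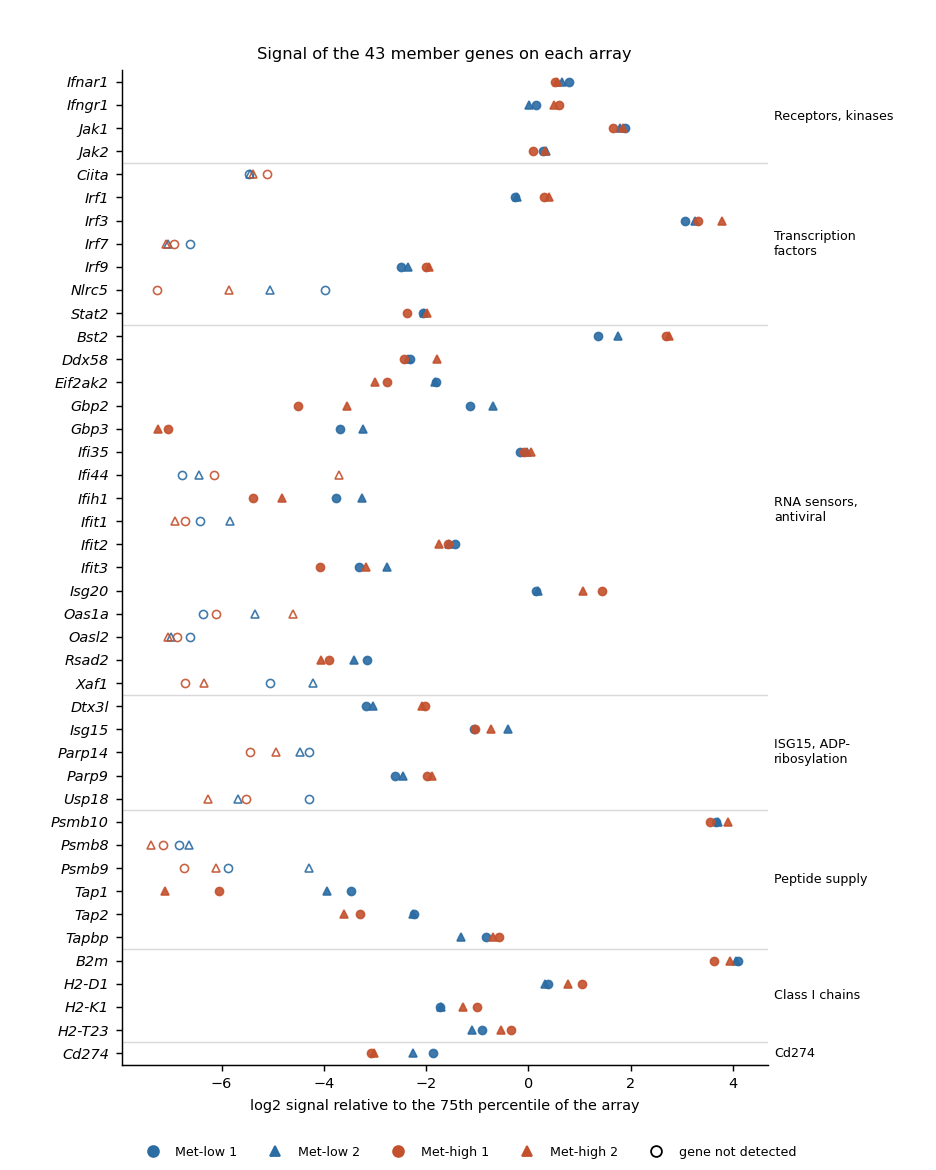
Log2 signal of each of the 43 members on each of the 4 arrays, relative to the 75th percentile of the array (horizontal axis), grouped by role. Circles and triangles are replicates 1 and 2, blue is Met-low, red is Met-high, and open symbols mark the 12 members not detected. In Gbp2, Met-low arrays sit at -1.14 and -0.69 and Met-high arrays at -4.50 and -3.55.

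The plot of signals by array is to be read within a gene, since probes of different genes differ in brightness. The populations did not overlap for 23 of the 31 members tested, 12 with the Met-high arrays above and 11 with the Met-low arrays above. Over all genes tested, 58.4% did not overlap, 35.8% with Met-high above and 22.6% with Met-low above. Among the 12 members not detected, the chosen probes of 6 were above background on no array (Irf7, Ifit1, Oas1a, Oasl2, Psmb8 and Ciita) and those of 6 on a single array (Usp18, Ifi44, Xaf1, Parp14, Psmb9 and Nlrc5). That array was a Met-low array for all of them except Ifi44, for which it was Met-high replicate 2. A second probe of Xaf1, dimmer in the mean, was above background on Met-high replicate 2 only (-3.16).

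The guanylate-binding proteins Gbp2 and Gbp3, interferon-induced GTPases that act against intracellular pathogens, were both called as higher in Met-low cells. Gbp2 (NM_010260) gave -1.14 and -0.69 in the Met-low samples and -4.50 and -3.55 in the Met-high samples. Every Met-low array was far above every Met-high array, and all 4 were above background. The ratio of -3.11 (standard error 0.36, adjusted p = 0.0153) corresponds to a signal 8.64-fold higher in Met-low cells. Gbp3 (NM_018734) gave -3.68 and -3.23 in the Met-low samples and -7.04 and -7.25 in the Met-high samples, in which it was not well above background. The size of the difference is therefore uncertain. Set against the dimmest signal that still passed the background flag, averaged over the Met-high arrays, the Met-low mean was 3.13-fold higher. This floor-based value is not a strict minimum, since the flag is set for each spot. On Met-high replicate 1 the dimmest passing signal was -4.96, while the dimmer Isg20 probe at -4.55 did not pass. The fitted ratio was -3.69 (standard error 0.22, adjusted p = 0.00504). With a normexp background correction the fitted ratios were -2.14 for Gbp2 and -0.996 for Gbp3, the latter smaller than the floor-based value. That correction was run with a constant offset added to every spot, which shrinks the log2 ratios of dim genes by construction. For dim genes, smaller ratios and ended calls with normexp therefore cannot be laid to background rather than to this offset. On chromosome 3 the genes are separated by 1 protein-coding gene.

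Of the RNA sensors, Ifih1 and Eif2ak2 were higher in Met-low cells, and Ddx58 was not called. Ifih1 (NM_027835), which encodes MDA5, a sensor of long double-stranded RNA, gave -3.76 and -3.26 in Met-low and -5.38 and -4.82 in Met-high cells. The populations did not overlap, and 1 of the Met-high arrays was above background. Its ratio was -1.59 (standard error 0.28, adjusted p = 0.0396), and the call ended with normexp (-0.56, adjusted p = 0.0813), with quantile normalization (adjusted p = 0.0719) and with a mean-variance trend (adjusted p = 0.0507). Eif2ak2 (NM_011163), which encodes the RNA-activated kinase PKR that arrests translation, gave -1.80 and -1.83 against -2.76 and -3.01. The Met-low arrays lay almost on the same value and the Met-high arrays well below them. Its ratio was -1.07 (standard error 0.17, adjusted p = 0.0312), a call that ended with normexp (adjusted p = 0.0546). For Ifih1 and Eif2ak2, the calls ended with normexp carry the limit of its offset given above. Ddx58, which encodes RIG-I, the sensor of RNA ends, gave -2.32 and -2.36 against -2.43 and -1.78, with overlap and a ratio of 0.24 (standard error 0.25, adjusted p = 0.575).

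Other antiviral effectors went the other way or were not called. Bst2 (NM_198095), which encodes tetherin, a membrane protein that holds budding virions at the cell surface, gave 1.37 and 1.75 in Met-low and 2.69 and 2.75 in Met-high cells. The Met-high arrays were the higher ones without overlap, and the ratio was 1.16 (standard error 0.19, adjusted p = 0.0353), a signal 2.24-fold higher in Met-high cells. Isg20 (NM_020583), which encodes an exonuclease that degrades RNA, gave 0.14 and 0.20 against 1.45 and 1.08, without overlap, and a ratio of 1.09 (standard error 0.19, adjusted p = 0.0398). A dimmer probe with the same accession went the opposite way, with -3.12 and -3.17 in Met-low and -4.55 and -4.47 in Met-high cells, a ratio of -1.36, and was above background on 3 arrays. With the mean of both probes the ratio of Isg20 was -0.13 (adjusted p = 0.624), so its direction rested on the choice of probe.

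Rsad2, which encodes the antiviral enzyme viperin, gave -3.16 and -3.40 in Met-low and -3.91 and -4.06 in Met-high cells, without overlap but also without a call, at a ratio of -0.70 (standard error 0.17, adjusted p = 0.0843). The IFIT proteins bind foreign RNA and hinder its translation. Ifit3 gave -3.31 and -2.75 against -4.07 and -3.17, with overlap and a ratio of -0.59, and Ifit2 gave -1.43 and -1.55 against -1.57 and -1.75, a ratio of -0.17 without overlap. Ifi35 had levels from -0.16 to 0.05 on the 4 arrays, with overlap and a ratio of 0.08. In this group the ratios of the 11 members tested thus ran from -3.69 to 1.16 with a median of -0.59. Ifit1, Oas1a, Oasl2, Ifi44 and Xaf1 were not detected, and their chosen probes gave between -7.04 and -3.71.

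ISG15 is a ubiquitin-like protein that is joined to other proteins after interferon, and Usp18 encodes the protease that removes it. Isg15 itself gave -1.05 and -0.40 in Met-low and -1.04 and -0.73 in Met-high cells, which overlapped, at a ratio of -0.16 (standard error 0.27, adjusted p = 0.742). Usp18 was not detected. Dtx3l (NM_001013371), a ubiquitin ligase that works in a complex with the ADP-ribosyltransferase encoded by Parp9, gave -3.18 and -3.04 against -2.02 and -2.08. Replicates of a population differed little beside the gap between populations, and the ratio was 1.06 (standard error 0.16, adjusted p = 0.0284). Parp9 gave -2.60 and -2.46 against -1.97 and -1.88, without overlap, at a ratio of 0.60 (standard error 0.16, adjusted p = 0.0961), and was not called. Parp14, which lies beside Dtx3l on the genome with 0 protein-coding genes between them, as Dtx3l lies beside Parp9, was above background on 1 Met-low array only.

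Peptides for class I molecules are cut by the immunoproteasome, pumped into the endoplasmic reticulum by the transporter of TAP1 and TAP2, and loaded with the help of tapasin. Tap1 (NM_013683) gave -3.47 and -3.93 in Met-low and -6.06 and -7.10 in Met-high cells. It was not well above background on either Met-high array, and against the same floor as for Gbp3 its Met-low signal was 2.64-fold higher, again not a strict minimum. The fitted ratio was -2.88 (standard error 0.38, adjusted p = 0.0212), and with normexp it was -0.76, smaller than the floor-based value and not called (adjusted p = 0.105). Tap2 (NM_011530) gave -2.23 and -2.25 against -3.29 and -3.60, all above background and without overlap, and a ratio of -1.20 (standard error 0.18, adjusted p = 0.0275). Both chains of the transporter were called in the same direction, but Tap1 was tested only because its Met-low arrays passed. Its direction cannot count as separate support for that of Tap2. Normexp, whose offset shrinks the ratios of dim genes, ended both calls (adjusted p = 0.0558 for Tap2).

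The remaining genes of this group were not called. Tapbp, which encodes tapasin, gave -0.83 and -1.33 in Met-low and -0.57 and -0.70 in Met-high cells, without overlap, at a ratio of 0.44 (standard error 0.22, adjusted p = 0.266). The immunoproteasome subunit gene Psmb10 gave 3.67 and 3.71 against 3.56 and 3.90, with overlap, at a ratio of 0.04 (standard error 0.19, adjusted p = 0.906). The other immunoproteasome subunit genes were not detected, Psmb8 with -6.82 and -6.64 against -7.15 and -7.38, and Psmb9 with -5.87 and -4.28 against -6.73 and -6.11. Psmb9, Tap1, Psmb8 and Tap2 follow each other on the genome with 0 protein-coding genes between neighbours, and the promoter windows of Psmb9 and Tap1 share 275 bases, read on opposite strands.

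Class I chains were detected on all 4 arrays and none was called. The heavy chain genes H2-K1 and H2-D1 encode classical presenting molecules, and H2-T23 encodes the nonclassical Qa-1. H2-K1 gave -1.72 and -1.71 in Met-low and -1.01 and -1.27 in Met-high cells, a ratio of 0.58 (standard error 0.17, adjusted p = 0.120), and a second probe gave 0.97. H2-D1 gave 0.38 and 0.32 against 1.04 and 0.78, a ratio of 0.56 (standard error 0.17, adjusted p = 0.125). H2-T23 gave -0.90 and -1.11 against -0.34 and -0.53, a ratio of 0.57 (standard error 0.18, adjusted p = 0.128). For each of the heavy chains the Met-high arrays were the higher ones without overlap, a side on which 35.8% of all genes tested lay. The light chain gene B2m lay on the other side, with 4.10 and 4.06 against 3.64 and 3.95 and a ratio of -0.29 (standard error 0.18, adjusted p = 0.357). Class I heavy chain genes, like the Gbp and Ifit families, are similar in sequence, and whether their probes bind transcripts of relatives was not tested.

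Cd274 encodes PD-L1, a surface ligand that restrains T cells and is itself induced by interferon gamma. It gave -1.86 and -2.25 in Met-low and -3.07 and -3.02 in Met-high cells, without overlap, at a ratio of -0.99 (standard error 0.19, adjusted p = 0.0533), just outside the threshold. Under 3 of 13 alternatives without a block it passed, with an adjusted p of 0.0401 when scaled to the percentile of probes above background on all arrays, 0.0455 among genes above background on all arrays and 0.0395 without Met-low replicate 2. Under the other 10 the adjusted p was 0.0525 to 0.220, among them normexp (ratio -0.64, 0.0965), quantile normalization (0.0862), no filter on dim probes (0.220), and removal of Met-low replicate 1 (0.163), Met-high replicate 1 (0.0794) or Met-high replicate 2 (0.0827).

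**Figure D4:**
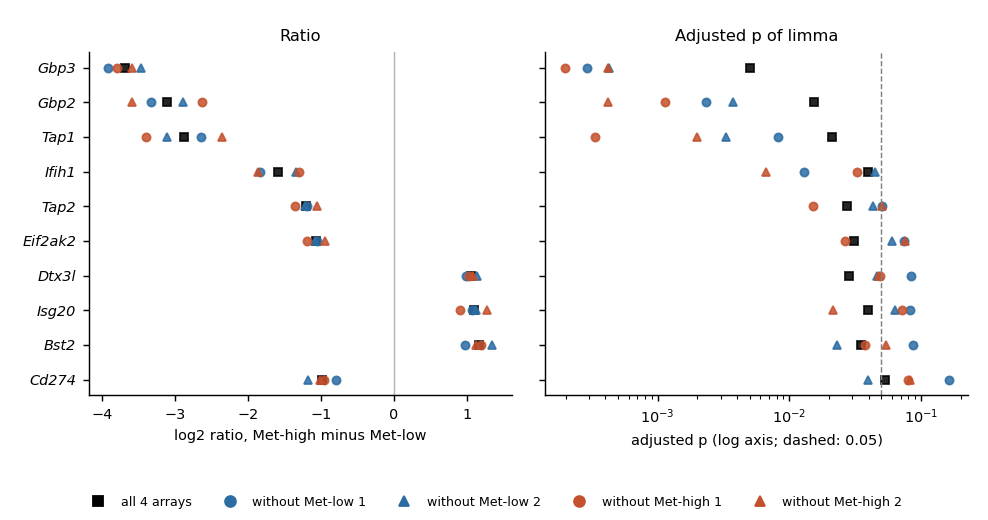
Log2 ratio, Met-high minus Met-low (left), and adjusted p of limma on a log axis (right, dashed line at 0.05), for the 9 called members and Cd274, with all 4 arrays (black squares) and after removal of each single array (coloured symbols). Gbp3, Gbp2, Tap1 and Ifih1 stay left of the dashed line in all 4 cases, while Isg20 and Eif2ak2 do so in 1 case each.

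In the plot with each array left out no called member could change sign, since the arrays of each did not overlap between the populations. The ratios ran from -3.92 to -3.47 for Gbp3, -3.59 to -2.64 for Gbp2, -3.40 to -2.36 for Tap1 and -1.87 to -1.31 for Ifih1. These fits kept the genes selected on all 4 arrays, among which Gbp3, Tap1 and Ifih1 stood only through their Met-low arrays. The ratios of Gbp3 and Tap1 also rest on Met-high signals not well above background. Without Met-low replicate 1, the calls of Bst2, Dtx3l, Isg20, Eif2ak2 and Tap2 ended (adjusted p = 0.0869, 0.0845, 0.0828, 0.0738 and 0.0509), which left 0 members called as higher in Met-high cells, with 5 on that side at an unadjusted p under 0.05. Without Met-high replicate 2, those of Eif2ak2, Bst2 and Tap2 ended (adjusted p = 0.0749, 0.0543 and 0.0506). Without Met-low replicate 2, those of Eif2ak2 and Isg20 ended (adjusted p = 0.0603 and 0.0635), and without Met-high replicate 1 that of Isg20 (adjusted p = 0.0716).

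The ratios of the members lay on both sides of 0. The median log2 ratio of the 31 members tested was -0.10 with a standard deviation of 1.19, against a median of 0.10 and a standard deviation of 0.64 over all 11954 genes. The spread of the members includes the fitted ratios of Gbp3 and Tap1, whose Met-high signals were not well above background. The lower and upper quartiles were -0.64 and 0.52 for the members and -0.20 and 0.35 for all genes. By means, 15 members lay on the Met-high side and 16 on the Met-low side. Scaling to the percentile of probes above background on all arrays moved the median of all genes from 0.10 to -0.05, and relative to that median, which such a scaling shifts along with every gene, 13 members lay above and 18 below.

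**Figure D5:**
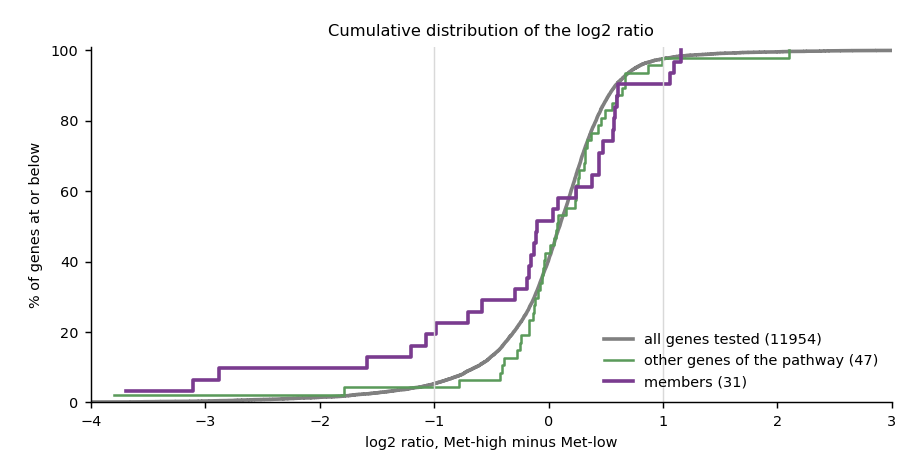
Cumulative share of genes (vertical axis, percent) at or below each log2 ratio, Met-high minus Met-low (horizontal axis, drawn from -4 to 3), for all 11954 genes tested (grey), 47 other genes of the pathway (green) and the 31 members (purple). The purple curve leaves the grey one below 0, where the members higher in Met-low cells lie, and ends at 1.16.

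The cumulative plot sets the members beside other genes of the same pathway, a list of 82 genes of interferon production, signalling and antigen presentation. Of these, 77 had a named probe, 47 were tested and 30 were not detected. Limma called 3 of the 47 against 5.73% of all genes tested, and the median ratio of the list was 0.08. Trim25, a ubiquitin ligase that acts on RIG-I, gave -4.21 and -4.09 in Met-low and -1.92 and -2.18 in Met-high cells, a ratio of 2.10 (standard error 0.18, adjusted p = 0.00827), and 1.33 with normexp. It was above background on 1 of the Met-low arrays and was tested only because its Met-high arrays passed. Rfx5, a subunit of the RFX complex on MHC gene promoters, gave -2.99 and -3.10 against -6.14 and -7.56. It was not well above background on either Met-high array, and against the same floor its Met-low signal was 4.16-fold higher (fitted ratio -3.80, standard error 0.46, adjusted p = 0.0178). With normexp its ratio was -1.11 (adjusted p = 0.0432), smaller than the floor-based value, a comparison that the offset limits in the same way. Its other probe did not pass the background flag on both arrays of either population. Ccl5, a chemokine that draws T cells, gave -0.57 and -0.30 against -2.65 and -1.80, without overlap, at a ratio of -1.79 (standard error 0.31, adjusted p = 0.0396), which quantile normalization took to an adjusted p of 0.0597.

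Some genes of that list that were not detected were chosen for mention after their values were seen. They were the interferon genes Ifnb1 and Ifng and the class II genes H2-Aa, H2-Ab1, H2-Eb1 and Cd74. A probe below background does not show that a transcript was absent.

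The identity of the cells was checked with marker genes. All 7 melanocyte lineage markers were detected, and their summed signal in multiples of the 75th percentile was 1691 and 1385 in Met-low and 1698 and 1493 in Met-high cells. Of 7 leukocyte markers with a probe, 3 were detected (Cd3e, Itgam and Csf1r), Ptprc, the pan-leukocyte gene, was above background on no array, and the summed signal was 5.60 and 6.24 in Met-low and 6.63 and 5.25 in Met-high cells. Endothelial markers were detected for 2 of 3 genes and fibroblast markers for 0 of 4. The summed leukocyte signal overlapped between the populations, but its genes did not move together. Itgam lay higher on the Met-low arrays without overlap (0.95 and 1.54 against 0.45 and 0.75, ratio -0.65, adjusted p = 0.189), Csf1r higher on the Met-high arrays without overlap (0.96 and 0.86 against 1.43 and 1.09, ratio 0.35, adjusted p = 0.300), and Cd3e overlapped. The part of these markers in the results was not tested. Met, the gene whose protein the cells were sorted on, had 1 named probe. It gave -0.26 and -0.89 in Met-low and 1.03 and -0.43 in Met-high cells. The mean was higher in Met-high cells, but the arrays overlapped (ratio 0.87, standard error 0.51, adjusted p = 0.333). With 1 probe and 2 arrays per population, this overlap does not show that Met RNA was equal. By quantitative RT-PCR, the paper found Met mRNA to be much higher in Met-high cells. Across 11944 tested genes with a value on every array, the arrays of a population correlated at 0.990. Those of different populations correlated at 0.967 to 0.976. Met-low samples lay at positions 1 and 2 of the slide and Met-high samples at positions 3 and 4, and position and population cannot be told apart.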

How the data were processed

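RNA of 2 Met-low and 2 Met-high samples was labelled with Cy3 and hybridised to 4 arrays on 1 slide, read in 1 scan, so no slide or scan block could be fitted. The authors deposited for each array the background-corrected intensity of 43020 spots with a flag each for uneven spots, saturation and a signal clear of background, from Agilent Feature Extraction (version 11.0.1.1 per the file headers, 10.7.3.1 in the submitters' processing notes). Their table of log2 values, also deposited, matched log2 intensities scaled to the array's 75th percentile and centred per probe, with slopes of 0.999 to 1.00 and 93.5% to 100% of 39297 probes within 0.01. It was used as an alternative.

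The intensity was taken to log2 minus the 75th percentile of each array. The percentiles were 942 and 1331 in Met-low and 858 and 1111 in Met-high samples, 50.0% to 53.6% of spots were well above background, 207 to 232 spots per array with outlier flags were left out, and 0 spots were saturated. Of 39429 probes, 27421 matched a symbol in RefSeq, for 20828 genes, and the probe with the highest mean over the 4 arrays stood for its gene. Genes that passed the background flag on every array of either population were tested with limma (version 3.58.1 under R 4.3.3, lmFit and eBayes). The p-values were adjusted by Benjamini-Hochberg over these genes. The code was tested on simulated data, built from the gene means and fitted spread of these arrays with independent noise. These data held fewer changed genes than were called here. The code recovered 1 of 100 changes of size 1 in log2 and 85 of 100 of size 2. A gene not called is therefore not shown to be unchanged. P-values are two-sided and measure only the spread between these samples, whose number limits the precision. A permutation of 2 against 2 arrays has 3 splits, whose smallest p is 0.333, and was not run.

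Named are all members, with full statistics for those called, those past 2-fold and 19 upstream, antigen presentation and checkpoint genes, and from the wider pathway list those called or past 2-fold. The members and lists were chosen with earlier results of these data known, and no test over the list was made. Alternatives were a normexp background correction (offset 50), other scalings (percentile over detected probes, quantile), dim probes unfiltered or filtered on all arrays, uneven spots kept, probes of a gene averaged, the authors' values, a variance trend, each array left out and the replicate number as a block. The normexp offset shrinks the log2 ratios of dim genes by construction. A population left with 1 array borrowed the spread of the other. Python 3.11.15 with numpy 2.4.6, pandas 2.3.3 and matplotlib 3.10.9 made tables and figures. Some results for the wider pathway list are not reported here.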

Additional observations from a re-analysis of the deposited data

How the results depend on the processing

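Under every alternative run, no called member changed sign except Isg20, whose ratio was -0.13 with the mean of its probes. With an array left out this was fixed in advance, since the arrays of the called members did not overlap between the populations. Of the members, 3 were called higher in Met-high and 6 higher in Met-low cells. The first count was 0 without the filter on dim probes (limma, with 8 members at an unadjusted p under 0.05), and 0 to 2 with an array left out. The second was 2 with normexp, 0 without the filter (11 unadjusted), and 4 to 6 with an array left out. Without the filter 20828 genes were tested, of which 0 were called higher in Met-high and 7 higher in Met-low cells, against 231 and 454 (1195 and 1463 unadjusted). The count higher in Met-high cells was 146 with the percentile over detected probes, 393 with a variance trend and 155 to 264 with an array left out. The median ratio of the members was 0.0616 among genes above background on all arrays and -0.1297 to 0.0657 with an array left out, so its sign is not settled. Of the other genes of the pathway, 1 was called higher in Met-high cells, which became 2 with quantile normalization or the trend, 0 without the filter (7 unadjusted) or with the stricter one (8 unadjusted), and 1 to 2 with an array left out. The 2 called higher in Met-low cells became 1 with quantile normalization or the stricter filter and 0 without the filter (5 unadjusted). The authors' values and outlier-flagged spots kept changed no call of a member.

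Replicate numbers are shared by the labels, but with 2 pairs they were not taken to pair the samples. Deviations from the population means of samples with the same number correlated at 0.539 over 11944 genes. With the replicate number as a block, 1966 and 1578 genes were called in favour of Met-high and Met-low cells. Of the members, 19 were called against 29.6% of all genes, 10 of them higher in Met-high cells, and the 9 called without the block were among them. Of the other genes of the pathway, 9 were called higher in Met-high cells.

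Signal near background leaves the size of the differences in Gbp3, Tap1 and Rfx5 uncertain and leaves 12 members without a ratio.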
